A study of Mus musculus with 8 samples.

Results

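The effector-versus-memory transcription factors are the 10 genes Tbx21, Eomes, Zeb2, Prdm1, Id2, Id3, Runx3, Bach2, Irf4 and Irf8. They were picked by gene symbol from the 27998 genes of the first single-cell experiment of the study, each symbol stood for 1 gene, and the rule used no measured value. Over all 15700 cell barcodes their counts ran from 1661 unique molecular identifiers (UMIs, each standing for 1 captured RNA molecule) for Irf4 to 42581 for Id2. They were followed in CD8+ T cells, CD4+ T cells and NK cells that were gated on the UMIs of other genes.

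The study placed CD8+ T cells specific for ovalbumin (OT1 cells) into C57BL/6 mice that carried B16-OVA melanoma, and asked how engineered adoptive cell therapy (ACT) changes tumor-infiltrating lymphocytes. The OT1 cells were untransduced, or they secreted PD1d (a decoy form of PD-1) with IL-2v (an IL-2 variant), PD1d with IL-33, or they were a mix of both engineered products, called PD1d/IL-2v/IL-33 ACT and here combination ACT. CD45+ cells sorted from pooled tumors gave 8 libraries of a 10x Genomics 5′ gene expression assay. Day 5 was sampled for untransduced ACT, combination ACT and non-treated tumors, day 12 for untransduced, PD1d/IL-2v, PD1d/IL-33 and combination ACT, and day 26 for combination ACT. Each condition and day has 1 library, so no difference between conditions has a replicate or a test here, and the host's own T cells and the transferred OT1 cells were not told apart; non-treated tumors hold host cells alone. All intervals are 95% intervals of counting error alone. They do not cover the spread between mice or between library preparations. Of the 8 comparisons made, PD1d/IL-33 against PD1d/IL-2v ACT and combination against untransduced ACT at day 12 each share 1 run code. This code was read from the deposited table of libraries, and what it stands for is not stated in the sources used here. In the other comparisons run code and treatment or day cannot be told apart.

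CD8+ T cells that meet antigen divide into short-lived killers and long-lived memory cells, and the balance between these fates is held by pairs of opposed regulators. T-bet, Zeb2, Blimp-1 (the product of Prdm1) and Id2 push towards terminal effector cells, whereas Eomes, Id3 and Bach2 are tied to memory and stem-like cells. Runx3 keeps the cytotoxic CD8 lineage, and Irf4 and Irf8, which belong to the interferon regulatory factor family, act downstream of the antigen receptor and of cytokines.

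Cells with 500 to 6000 genes, 2000 to 40000 UMIs, 5 to 60% ribosomal and under 10% mitochondrial UMIs were kept, which left 12828 cells. A CD8 T cell had a UMI of Cd3d, Cd3e or Cd3g plus one of Cd8a or Cd8b1, and no Cd4. A CD4 T cell had a Cd3 and a Cd4 UMI and none of Cd8a or Cd8b1, and was split by Foxp3, the factor of regulatory T cells. An NK cell had a UMI of Ncr1 or Klrb1c and none of Cd3, Cd4 or Cd8, and all 4 gates left out cells with Csf1r or Cd79a. This gave 5071 CD8 T, 793 Foxp3-negative CD4 T, 406 Foxp3-positive CD4 T and 2411 NK cells. The CD8 T cells per library numbered from 42 in untransduced ACT at day 12 to 2292 in combination ACT at day 26, and the median UMIs per CD8 T cell ran from 5168.5 to 8322. Marker lists overlapped between some gates. A list of 7 NK receptors and NK-rich granule genes (Klre1, Klra8, Klrk1, Klri2, Xcl1, Nkg7 and Gzma) summed to 11340 to 16881 CPM (UMIs of the gene per 1000000 UMIs of the gated cells) in NK cells against 2919 to 5830 CPM in CD8 T cells, which share Nkg7, Klrk1, Xcl1 and Gzma. Cd8a, Cd8b1 and Nkg7 summed to 3188 to 4673 CPM in CD8 T cells and to 1800 to 3411 CPM in NK cells, where the gate leaves Nkg7 alone. A list of 5 regulatory T cell genes without Foxp3 (Il2ra, Ctla4, Ikzf2, Tnfrsf18 and Tnfrsf4) summed to 5055 to 7376 CPM in Foxp3-positive and 685 to 3114 CPM in Foxp3-negative CD4 T cells. The gating genes Ncr1 and Klrb1c summed to 2.27 to 60.4 CPM in the CD8 gate, and 6 myeloid genes to 7.26 to 58.5 CPM against 4162 to 14531 CPM in Csf1r+ cells. 143 barcode sequences occurred in more than 1 library. Leaving their 83 CD8 T cells out shifted no log2 ratio of a member between libraries by more than 0.108.

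Levels are given as CPM, summed over the gated cells of a library. Ratios are log2 after 10 CPM were added to both sides, which pulls the ratios of low genes towards 0, and a difference is counted as called at 2-fold or more, a log2 ratio of 1. With 1 library a side this is a rule of size and not a test. The share of all genes with at least 50 UMIs in the compared cells that pass the same rule is given as background.

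Irf8 and Eomes had the highest and Irf4 the lowest median ratio of NK to CD8 T cells, so the sequence before the start sites of these members is shown first. The 250 bases upstream of the first Irf8 start (chr8:120736108-120736357, plus strand), of Eomes (chr9:118477939-118478188, plus strand) and of Irf4 (chr13:30748983-30749232, plus strand) are those of RefSeq on GRCm38.p6, the build of the counts' annotation. Capitals mark matches, searched on both strands, to the interferon-gamma activated site TTCNNNGAA, which STAT factors bind, in Irf8, and to the core of the interferon-stimulated response element (GAAA and GAAA with 2 free bases between them) in Eomes.
Irf8: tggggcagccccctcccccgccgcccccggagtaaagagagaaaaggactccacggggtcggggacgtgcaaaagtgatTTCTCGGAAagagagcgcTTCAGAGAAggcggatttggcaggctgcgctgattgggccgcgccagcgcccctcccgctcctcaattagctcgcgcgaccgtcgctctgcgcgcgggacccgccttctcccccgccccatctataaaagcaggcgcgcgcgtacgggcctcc
Eomes: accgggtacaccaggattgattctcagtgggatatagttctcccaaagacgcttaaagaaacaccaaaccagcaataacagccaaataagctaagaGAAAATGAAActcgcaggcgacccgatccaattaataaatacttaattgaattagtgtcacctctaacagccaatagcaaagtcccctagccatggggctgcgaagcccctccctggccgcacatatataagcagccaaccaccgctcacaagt
Irf4: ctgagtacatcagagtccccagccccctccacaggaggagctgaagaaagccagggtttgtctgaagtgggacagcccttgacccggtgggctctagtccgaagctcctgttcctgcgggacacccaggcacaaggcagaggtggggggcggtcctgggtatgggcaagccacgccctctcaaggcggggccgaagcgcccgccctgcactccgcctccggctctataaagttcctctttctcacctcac
Of 32851 mouse promoter windows of this length, 7.02% hold at least 1 TTCNNNGAA and 2.98% at least 1 such core, and the 2 motifs do not overlap in the windows shown. The Irf8 window holds 2 of the first, which begin 171 and 153 bases before the start, and the Irf4 window holds neither motif. Windows of Zeb2 and Bach2, not shown, also hold a TTCNNNGAA, and that of the second Irf8 start holds none. These are matches of letters in a window, and no binding was measured.

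Irf8 had the largest median ratio between NK and CD8 T cells of the 10 members. In NK cells its level was 1298 CPM in untransduced ACT at day 5, 1469 in combination ACT at day 5, 1084 in non-treated tumors, 770 in untransduced ACT at day 12, 851 in PD1d/IL-2v ACT, 1286 in PD1d/IL-33 ACT, and 1166 and 642 in combination ACT at days 12 and 26. In CD8 T cells of the same libraries, in the same order, it was 182, 235, 189, 54.5, 247, 69.1, 175 and 83.2 CPM. The lowest NK level thus lay above the highest CD8 level, and within each of the 8 libraries Irf8 was more than 2-fold higher in NK cells (log2 ratio 1.75 to 4.03, median 2.72). In the same order of libraries 8.11, 6, 10.4, 11, 4.69, 7.79, 3.66 and 6.8% of all genes were 2-fold or more apart between NK and CD8 T cells in either direction. After each cell was thinned to 2000 UMIs, 77.5% of NK cells held an Irf8 UMI against 13.1% of CD8 T cells, and the unthinned shares were 90.2 and 28.7% (median depths of 5226 and 6080 UMIs).

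Among CD8 T cells Irf8 differed between the engineered products. At day 12 it stood at 247 CPM (234 to 260) with PD1d/IL-2v, 175 CPM (166 to 186) with combination ACT and 69.1 CPM (58.5 to 81.0) with PD1d/IL-33. The counting intervals of these 3 levels did not overlap, and the share of all genes for which this holds is not given here. After thinning, 23.2% (19.8 to 26.9) of CD8 T cells with PD1d/IL-2v held an Irf8 UMI. The share was 19.9% (17.1 to 23.0) with combination ACT and 7.90% (5.36 to 11.2) with PD1d/IL-33. By share of cells the intervals of PD1d/IL-2v and combination ACT thus overlapped, and that of PD1d/IL-33 lay below both. PD1d/IL-33 ACT was lower than PD1d/IL-2v ACT by a log2 ratio of -1.70 (-1.91 to -1.49), where 3.08% of genes were called in either direction, and combination ACT was higher than PD1d/IL-33 ACT by 1.23 (1.02 to 1.44), where 1.76% were called. Irf8 is high in NK cells, and the NK gating genes in the CD8 gate moved with it in these libraries, at 60.4 CPM with PD1d/IL-2v, 33.1 with combination ACT and 7.27 with PD1d/IL-33. In CD8 T cells without a UMI of Ncr1 or Klrb1c the log2 ratios were -1.92 and 1.26. Over all comparisons and members, leaving such cells out shifted most the Irf8 ratio of combination against untransduced ACT at day 12, by 0.696. Whether NK cells in the CD8 gate account for the Irf8 differences was not tested. In NK cells the order differed. Irf8 was higher with PD1d/IL-33 than with PD1d/IL-2v by 0.59 (0.47 to 0.71).

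Over time Irf8 in CD8 T cells under combination ACT stood at 235 CPM at day 5, 175 at day 12 and 83.2 at day 26. The step from day 12 to day 26, at a log2 ratio of -0.99 (-1.10 to -0.89), lay just under the 2-fold line. Untransduced ACT went from 182 CPM at day 5 to 54.5 CPM at day 12, but the later library has 42 CD8 T cells, and 1 of them held 8 of its 15 Irf8 UMIs. The non-treated level of 189 CPM also leaned on few cells, since 1 of 76 held 35 of 83 UMIs. In CD8 T cells without a UMI of Lyz2, C1qa or C1qb, Irf8 was higher in untransduced ACT of day 5 than in non-treated tumors by a log2 ratio of 0.87.

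**Figure D1:**
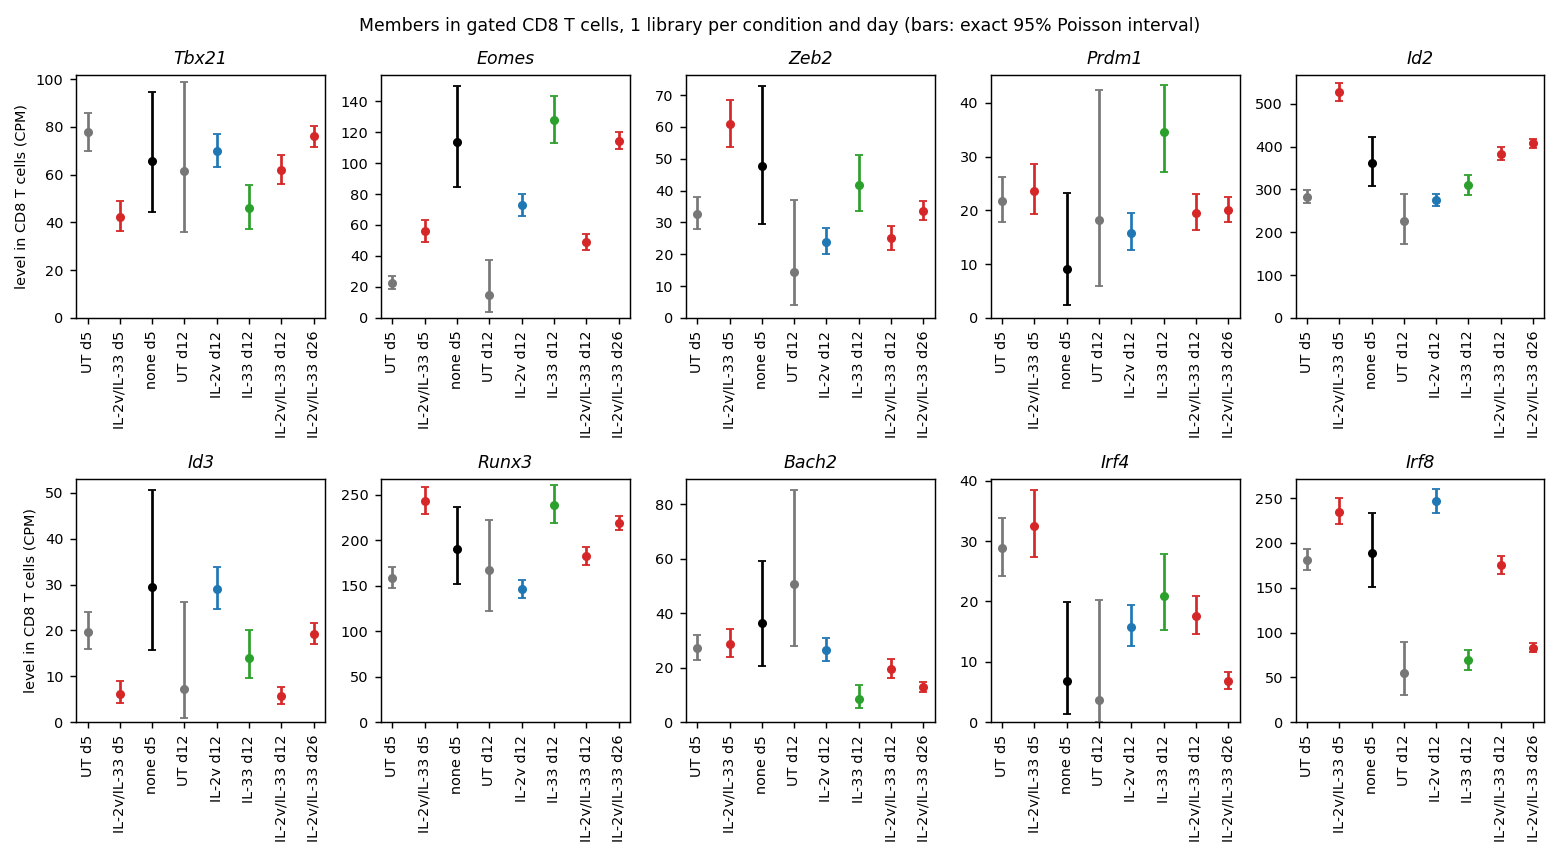
Level of each member in gated CD8 T cells (y axis, CPM from 0) in the 8 libraries (x axis; UT, untransduced ACT; none, non-treated; the others are PD1d with the named cytokines; d, day), with 1 point per library and exact 95% Poisson intervals as bars. Irf8 separates PD1d/IL-2v (247 CPM) from PD1d/IL-33 (69.1 CPM), Irf4 is 32.6 CPM at day 5 and 6.81 CPM at day 26 of combination ACT, and Id3 is low in that treatment at days 5 and 12.

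Within libraries Irf8 tracked the late granzymes. CD8 T cells with at least 2 UMIs of Gzmc, Gzmd, Gzme, Gzmf and Gzmg in sum, granzymes of strongly activated killers, had 342 CPM Irf8 against 170 CPM in the other CD8 T cells of untransduced ACT at day 5. The same pair of levels was 545 against 210 CPM in combination ACT at day 5, 495 against 220 CPM in PD1d/IL-2v ACT and 323 against 114 CPM in combination ACT at day 12. Irf8 was thus higher in the granzyme-positive cells of all 4 libraries that had 20 or more of them, at log2 ratios of 0.97 to 1.43, and each interval excluded 0. Id2 was also higher beyond counting error in 3 of the 4 (log2 ratio -0.016 to 0.85). The share of all genes that differ is not given here for this split or for the other marker splits below. These cells also had more UMIs (median 12370 to 14724 against 7244 to 8132). When every cell was thinned to 2000 UMIs before the split, 2 libraries kept 20 such cells. Irf8 then had log2 ratios of 1.11 in PD1d/IL-2v ACT and 1.51 in combination ACT at day 12. In the same order Id2 had 1.09 and -0.0057, and Runx3 had 1.10 and 0.22.

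Cells marked by Gzmk, a granzyme of effector memory cells, showed the opposite. With 2 or more Gzmk UMIs, Irf8 was lower than in the other CD8 T cells in all 7 libraries compared (log2 ratio -2.31 to -0.37), for instance 51.8 against 142 CPM at day 26. Gzmk cells were 16.5% of CD8 T cells with PD1d/IL-2v and 62.1% with PD1d/IL-33. Inside the Gzmk cells alone Irf8 was 197 CPM with PD1d/IL-2v and 53.9 CPM with PD1d/IL-33, a log2 ratio of -1.69 (-2.03 to -1.36). Whether the make-up of the CD8 gate accounts for the Irf8 difference was not tested.

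Irf4, the relative of Irf8 that antigen receptor signals induce, had a different pattern. In CD8 T cells it stood at 28.8 CPM in untransduced ACT and 32.6 in combination ACT at day 5, 6.82 in non-treated tumors, 3.63 in untransduced ACT, 15.8 in PD1d/IL-2v ACT, 20.9 in PD1d/IL-33 ACT and 17.6 in combination ACT at day 12, and 6.81 at day 26. The 2 ACT libraries of day 5 were highest, and their intervals overlapped. In combination ACT the log2 ratio was -0.63 from day 5 to day 12 and -0.71 from day 12 to day 26. With the 10 CPM added to both sides each lay below the 2-fold line, and each interval excluded 0. In NK cells Irf4 was close to absent. 16 Irf4 UMIs were found in 2411 NK cells, 1.08 CPM (0.618 to 1.76), and 4 of the 8 NK libraries held none. The NK level was below the CD8 level in all 8 libraries, by 2-fold or more in 5 of them.

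Eomes, a T-box factor of NK cells and memory CD8 T cells, was higher in NK than in CD8 T cells in each of the 8 libraries (log2 ratio 1.21 to 3.41, median 1.68). In CD8 T cells its level was 22.3 CPM in untransduced ACT and 56.0 in combination ACT at day 5, and 114 in non-treated tumors. At day 12 it was 14.5 in untransduced ACT, 72.8 in PD1d/IL-2v ACT, 128 in PD1d/IL-33 ACT and 48.9 in combination ACT, and at day 26 it was 114 CPM. Both untransduced libraries were the lowest. Against untransduced ACT of day 5, Eomes was higher in combination ACT by 1.03 (0.79 to 1.27), where 3.18% of genes were called, and that untransduced library stood below non-treated tumors at a log2 ratio of -1.94 (-2.35 to -1.52), where 2.03% were called. Combination ACT of day 12 was lower than PD1d/IL-33 ACT by -1.22 (-1.43 to -1.02), and its day 26 library was higher than that of day 12 by 1.08 (0.93 to 1.22), where 3.12% of genes were called. After thinning, 15.1% of CD8 T cells held an Eomes UMI against 0.38% of Csf1r+ cells, a gate that should lack the gene (median depths of 6080 and 9105.5 UMIs). Before thinning the shares were 34.1% and 1.90%. At day 5 the thinned share was 14.5% (7.45 to 24.4) in the 76 CD8 T cells of non-treated tumors. It was 6.57% (4.57 to 9.11) with untransduced and 9.29% (6.88 to 12.2) with combination ACT, and these 3 intervals overlapped.

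Eomes also went with Gzmk inside the libraries. It was higher in Gzmk cells in all 7 libraries compared, beyond counting error in 6, with 146 against 56.1 CPM at day 26 and 144 against 58.5 CPM in PD1d/IL-2v ACT. Gzmk cells made up 65.7% of CD8 T cells at day 26 against 21.4% at day 12. Within the Gzmk cells the level was 146 against 91.4 CPM (log2 ratio 0.62, 0.37 to 0.86). In the Gzmk cells of non-treated tumors and untransduced ACT of day 5 it was 196 and 26.7 CPM. The whole CD8 gate of non-treated tumors has 76 cells with 50 Eomes UMIs, and its Gzmk cells are a part of these. Whether the make-up of the CD8 gate accounts for the Eomes differences was not tested. In the cells positive for Gzmc to Gzmg Eomes was lower in 3 of 4 libraries.

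Tbx21, which encodes T-bet, the master factor of type 1 effector cells, varied 1.84-fold among libraries, from 42.2 to 77.7 CPM in CD8 T cells. The lowest value was that of combination ACT at day 5. Its log2 ratio to untransduced ACT of that day was -0.75 (-0.96 to -0.54), opposite in sign to that of Eomes. T-bet RNA was higher in NK cells in all 8 libraries, by 2-fold or more in 7, with 94.3 to 268 CPM. Zeb2, the repressor that acts with T-bet in terminal effector cells, was highest in CD8 T cells of combination ACT at day 5 (60.8 CPM) and 24.96 CPM at day 12, a log2 ratio of -1.02 (-1.23 to -0.80), where 0.72% of genes were called. The other libraries had 14.5 to 47.7 CPM.

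Prdm1, whose product Blimp-1 drives terminal effector and resident cells, lay between 9.09 and 34.5 CPM in CD8 T cells, highest with PD1d/IL-33. After 10 CPM were added, no comparison between libraries passed 2-fold. The levels themselves were 34.5 CPM (27.2 to 43.2) with PD1d/IL-33 and 15.8 CPM (12.7 to 19.4) with PD1d/IL-2v. Prdm1 was higher in regulatory CD4 T cells. In Foxp3-positive CD4 cells it was 64.7 to 120 CPM in the 5 libraries with 20 or more cells, above the Foxp3-negative CD4 cells in all 5 and 2-fold or more in 3. Of all genes, 9.63, 9.04, 6.11, 10.6 and 7.69% were called between these gates in untransduced and combination ACT at day 5, PD1d/IL-2v and combination ACT at day 12, and combination ACT at day 26.

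Id2 and Id3 are inhibitors that bind E proteins and block their access to DNA, Id2 in effector and NK cells and Id3 in memory and naive cells. Id2 was 527 CPM in CD8 T cells of combination ACT at day 5, the highest of the 8, against 282 CPM in untransduced ACT (log2 ratio 0.88, 0.78 to 0.97). It was 383 and 407 CPM at days 12 and 26 of the same treatment and 225 to 362 CPM in the other libraries. Id3 was lower in combination ACT than in untransduced ACT at day 5, a difference that was not called after 10 CPM were added. After thinning, 1.62% (0.70 to 3.16) against 3.59% (2.14 to 5.61) of these CD8 T cells held an Id3 UMI, and the intervals overlapped. Id3 was 6.20 and 5.66 CPM in combination ACT at days 5 and 12 and 19.2 CPM at day 26. It was 19.7 CPM in untransduced ACT at day 5, 28.9 with PD1d/IL-2v and 14.1 with PD1d/IL-33. The low level at day 12 differed from PD1d/IL-2v ACT by a log2 ratio of -1.31 (-1.55 to -1.08), where 2.16% of genes were called in either direction and 1.07% lower. Non-treated tumors gave 29.6 CPM, from 13 UMIs of which 9 lay in 1 cell, and untransduced ACT at day 12 gave 7.26 CPM from 2 UMIs.

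In cells with both Pdcd1 and Tox, the markers of exhaustion, and no Gzmc to Gzmg, Id3 was lower than in the other CD8 T cells in 7 of 7 libraries (log2 ratio -1.83 to -0.25), each beyond counting error. This was not particular to these cells. Id3 was also lower beyond counting error in Gzmk cells in 5 of 7 libraries and in Gzmc to Gzmg cells in 2 of 4. In cells with Mki67 or Top2a this held in 4 of 6. In none of these splits was Id3 higher beyond counting error (0 libraries). The Id3 level of 52.7 CPM in NK cells at day 26, against 0 to 3.596 CPM in the other NK libraries, came from 18 UMIs of a single cell.

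Bach2, a repressor that holds T cells in a resting, memory-prone state, was 8.63 CPM in CD8 T cells with PD1d/IL-33, 13.0 to 36.4 CPM in the others with more than 50 CD8 T cells, and 50.8 CPM (27.8 to 85.3) in untransduced ACT at day 12. PD1d/IL-33 was lower than PD1d/IL-2v by a log2 ratio of -0.97 (-1.31 to -0.62), with 19 Bach2 UMIs in the PD1d/IL-33 library. After thinning, 3.54% (1.90 to 5.98) of CD8 T cells with PD1d/IL-33 and 5.45% (3.73 to 7.64) with PD1d/IL-2v held a Bach2 UMI. These intervals overlapped, and by this share combination ACT at day 26 was lowest (2.40%). Bach2 was lower in the Gzmk cells than in the other CD8 T cells in all 7 libraries compared (log2 ratio -1.35 to -0.071), beyond counting error in 6. Runx3, the factor that silences Cd4 and opens cytotoxic genes, had 146 to 244 CPM in CD8 T cells with no difference of 2-fold. Within libraries it was higher in Gzmk cells beyond counting error in 5 of 7, by a log2 ratio of at most 0.62. Combination ACT at day 5 and PD1d/IL-33 ACT held its highest levels, 244 and 239 CPM, which their intervals do not separate.

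**Figure D2:**
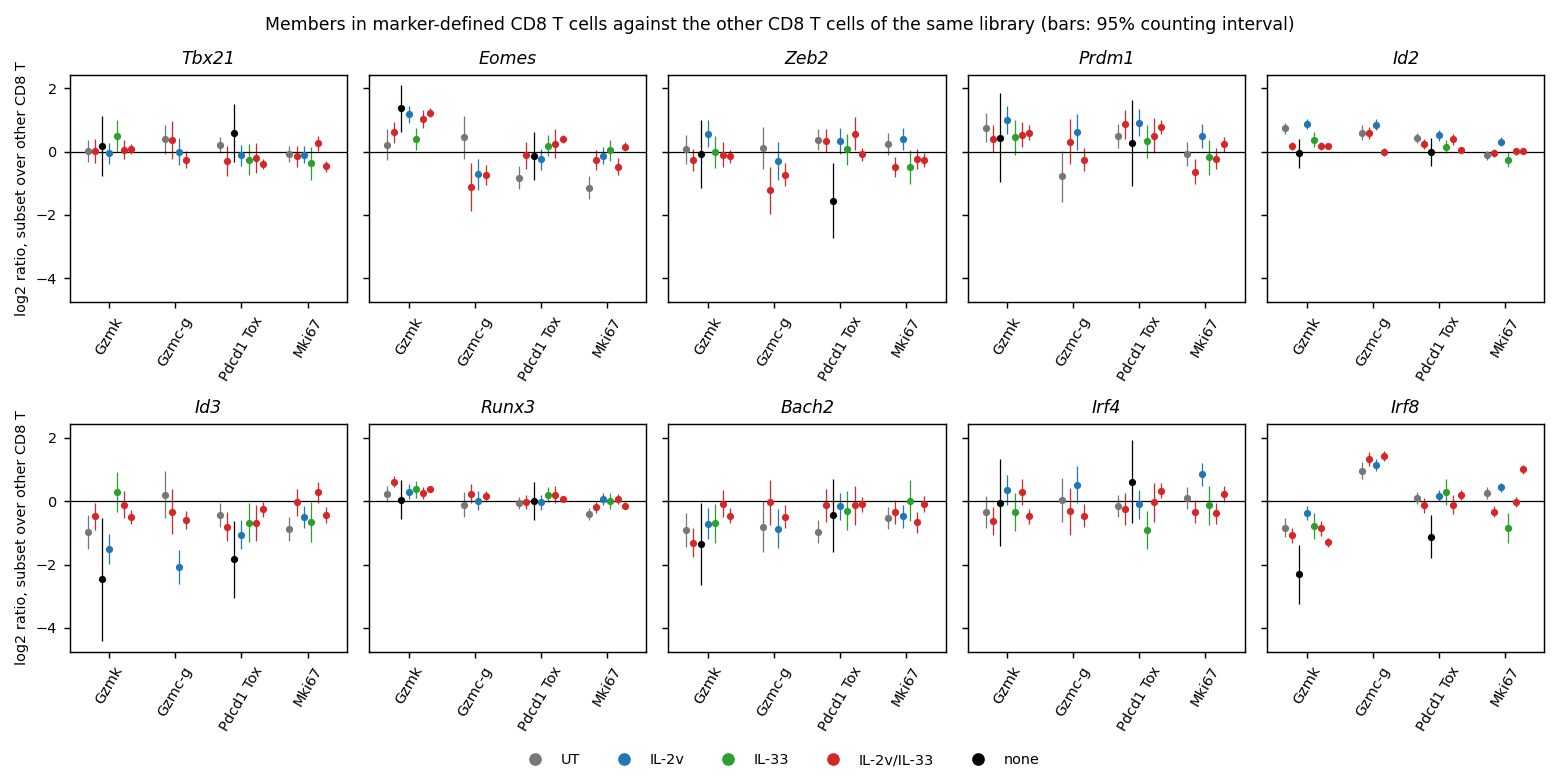
Log2 ratio (y axis, after 10 CPM were added) of each member between marker-defined CD8 T cells and the other CD8 T cells of the same library, for cells with 2 or more UMIs of Gzmk, with 2 or more of Gzmc to Gzmg (Gzmc-g), with Pdcd1 and Tox, and with Mki67 or Top2a. Points are libraries with at least 20 such cells, coloured by treatment, and bars are 95% counting intervals. Irf8 lies above 0 in all 4 libraries for Gzmc-g and below 0 in all 7 for Gzmk, and Eomes lies above 0 in all 7 for Gzmk.

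Across the 8 comparisons between libraries, 13 of 80 member ratios in CD8 T cells reached 2-fold, where 0.72 to 7.75% of all genes did so in a comparison. Besides those given above, combination ACT against untransduced ACT at day 12 had 4 of 9 members called (Eomes 1.26, Irf4 1.02 and Irf8 1.52 higher, Bach2 -1.05 lower), beside 7.75% of genes. That comparison rests on 42 untransduced CD8 T cells with 1 Irf4 UMI and 4 Eomes UMIs. Id3, with under 50 UMIs in both libraries together, was not counted in the 9. The 80 ratios include it, although the background leaves out such genes. Against the untransduced library of day 5 instead, Irf8 and Irf4 gave log2 ratios of -0.047 and -0.49 and no member was called. The last called value was Irf4, which was higher in untransduced ACT of day 5 than in non-treated tumors by 1.20 (0.52 to 1.89), from 3 UMIs in the latter. Only 3 of the 13 stayed at 2-fold under each other setting tried, namely Irf8 in PD1d/IL-33 against PD1d/IL-2v ACT, Id3 in combination against PD1d/IL-2v ACT and Eomes in untransduced ACT of day 5 against non-treated tumors.

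**Figure D3:**
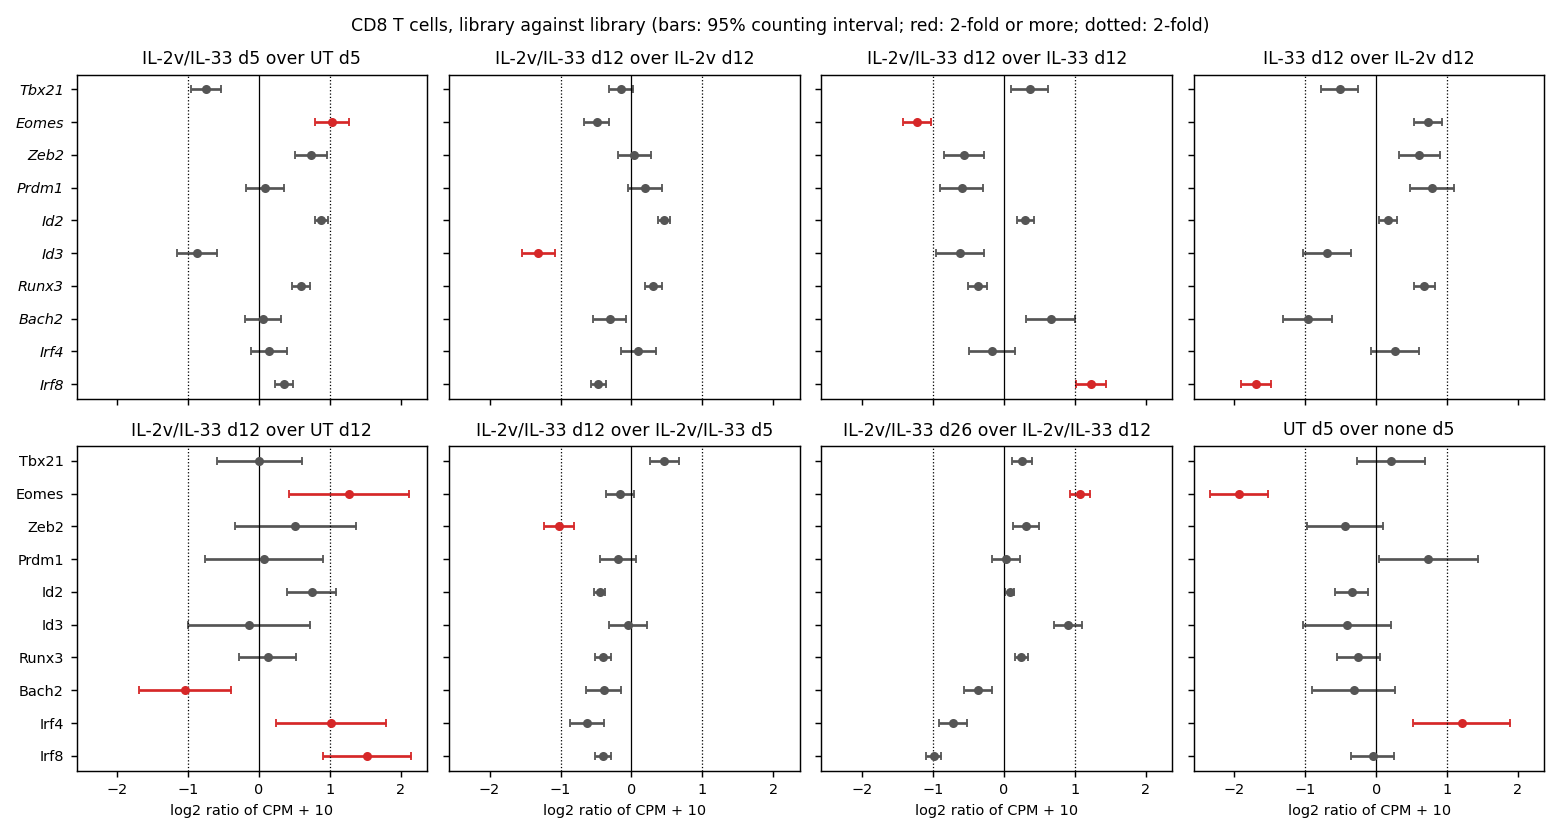
Log2 ratio (x axis, after 10 CPM were added) of the 10 members in CD8 T cells for the 8 comparisons between libraries, with 95% counting intervals as bars. Red points are 2-fold or more apart and dotted lines mark 2-fold; 13 of 80 points are red, and the comparison with untransduced ACT at day 12 has the widest bars.

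Genes that these factors act with or control were counted by list. Of 10 effector readouts, 9 were measured in combination ACT against untransduced ACT at day 5, and 3 were 2-fold or more higher (Gzma 1997 against 182 CPM, Ifng 1231 against 182 CPM, Gzmb 1846 against 514 CPM) and none lower, a median log2 ratio of 0.24 beside -0.09 over all genes, of which 3.18% were called in either direction. Of 4 measured memory readouts 2 were lower, the IL-7 receptor gene Il7r (40.2 against 206 CPM) and the homing receptor gene Ccr7 (187 against 525 CPM). Of 8 memory-side factors 1 was lower, Klf2, which keeps T cells circulating, and of the E proteins and partners (5 measured), the effector and residency factors (7) and the residency readouts (5) none passed 2-fold. In the same treatment from day 12 to day 26 the memory readouts Il7r, Slamf6 and S1pr1 were 2-fold or more higher (3 of 5), as were Tcf7 and Klf2 (2 of 8 memory-side factors), and Gzmb, Gzma and Il12rb2 were lower (3 of 10 effector readouts) while Cxcr3 was higher, beside 3.12% of all genes called. Combination ACT against PD1d/IL-2v ACT at day 12 had Il7r and S1pr1 lower (2 of 4 memory readouts), Tcf7 and Klf2 lower (2 of 8), and Cxcr3 and Ifng lower (2 of 9 effector readouts), beside 2.16% of all genes called. The comparisons that name combination ACT at day 12 share that library.

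**Figure D4:**
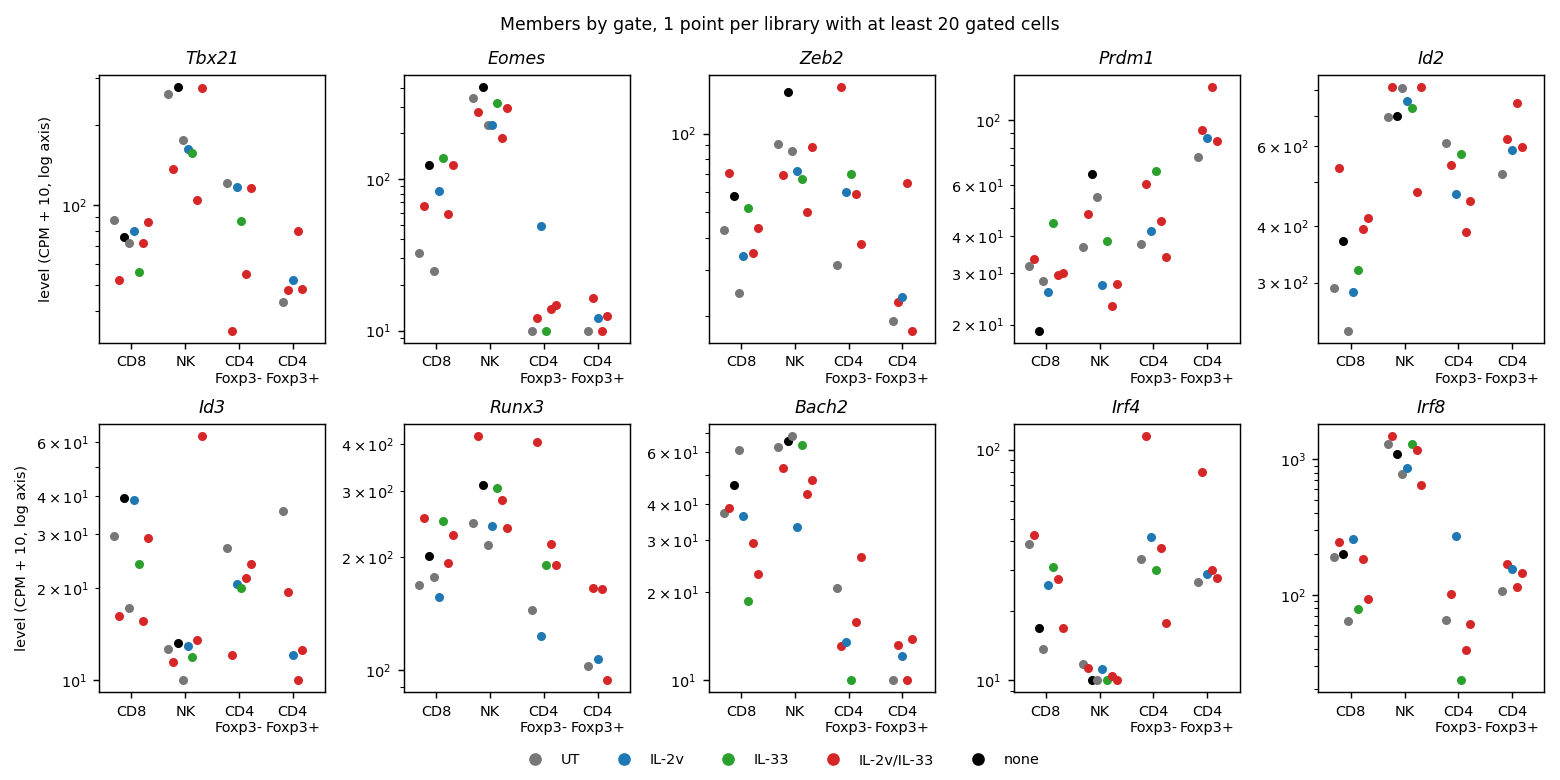
Level of each member (y axis, CPM + 10 on a log axis) in the CD8 T, NK, Foxp3-negative and Foxp3-positive CD4 T gates, with 1 point per library with at least 20 cells in the gate, coloured by treatment. For Irf8 and Eomes all 8 NK points lie above all CD8 points, and for Irf4 the NK points lie near the floor of 10.

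Among the remaining differences between NK and CD8 T cells, Id2 was higher in NK cells in 8 of 8 libraries (4 by 2-fold or more) with 466 to 803 CPM, Zeb2 in 7 of 8 (5 by 2-fold or more) and Runx3 in 8 of 8 (none by 2-fold, median 0.55). Bach2 was also higher in 7 of 8 (median 0.53), at 23.3 to 57.9 CPM in NK cells. For these and the other counts of libraries by direction between gates, the share of all genes with such a count is not given here. Between NK libraries 1 of the measured members passed 2-fold in the step from day 5 to day 12 of combination ACT, Prdm1 (37.6 to 13.2 CPM, log2 ratio -1.04, beside 0.64% of genes), and 1 from day 12 to day 26, Tbx21 (94.3 to 264 CPM, 1.39, beside 10.6% of genes). The median log2 ratio of all genes was -0.14 in the first of these steps and 0.22 in the second. In the other 6 comparisons no member with 50 UMIs or more passed 2-fold. Their backgrounds were 4.65% (combination against untransduced ACT at day 5), 3.77, 2.96 and 9.85% (combination against PD1d/IL-2v, PD1d/IL-33 and untransduced ACT at day 12), 5.01% (PD1d/IL-33 against PD1d/IL-2v ACT) and 1.56% (untransduced ACT against non-treated tumors at day 5).

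In Foxp3-negative CD4 T cells Eomes was lower than in CD8 T cells in 6 of 6 libraries, by 2-fold or more in 5, and Irf8 in 5 of 6, by 2-fold or more in 4. The genes 2-fold or more apart made up 5.07 and 6.67% at day 5 in untransduced and combination ACT, 6.26, 6.63 and 4.76% at day 12 in PD1d/IL-2v, PD1d/IL-33 and combination ACT, and 2.58% at day 26. The exception was PD1d/IL-2v ACT, with 262 CPM Irf8, of which 71 of 74 UMIs lay in 5 of 48 cells. The same gate in combination ACT at day 5 stood out for Zeb2 (141 against 21.4 CPM in untransduced ACT), Irf4 (104 against 23.5) and Runx3 (394 against 135), and had less Tbx21 (23.7 against 111). These are log2 ratios of 2.27, 1.77, 1.48 and -1.85, beside 13.8% of genes called. In that library 3 genes of type 2 lymphocytes (Il1rl1, the IL-33 receptor, Gata3 and Areg) summed to 6452 CPM in the gate against 195 CPM in untransduced ACT. The 3 genes are not particular to this gate, since they summed to 167 to 3029 CPM over libraries in Foxp3-positive CD4 T cells. Of the 145 Foxp3-negative cells, 108 held a UMI of at least 1 of the 3. Zeb2 was 166 CPM and Irf4 124 CPM in those 108 cells. In the other 37 cells Zeb2 was 18.4 CPM (3.79 to 53.7, from 3 UMIs) and Irf4 6.12 CPM (0.155 to 34.1, from 1 UMI). The 60 untransduced cells without the 3 genes had 20.2 and 4.04 CPM, from 5 UMIs and 1 UMI. The 42 untransduced cells with at least 1 of the 3 genes had 22.7 CPM Zeb2 and 45.4 CPM Irf4, from 5 and 10 UMIs. In the cells without the 3 genes, Runx3 was 300 CPM in combination and 129 CPM in untransduced ACT. Tbx21 was 24.5 and 113 CPM there, from 4 and 28 UMIs.

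Outside the T and NK gates, Id3 and Irf4 differed in Csf1r+ cells, the gate of macrophages and monocytes. Id3 was 239 CPM in untransduced ACT and 20.2 CPM in combination ACT at day 5, a log2 ratio of -3.04 (-3.30 to -2.79), beside 6.91% of genes 2-fold or more apart. It was 297 CPM in the 24 such cells of non-treated tumors and 122 in the 15 of untransduced ACT at day 12, 89.1 CPM with PD1d/IL-2v, 61.7 with PD1d/IL-33, and 58.4 and 138 CPM in combination ACT at days 12 and 26. Irf4 went the other way at day 5, from 3.91 CPM to 37.8 CPM (log2 ratio 1.78, 1.45 to 2.11). At day 12 Irf4 was 36.0 CPM (14.5 to 74.1) with PD1d/IL-33, 26.4 CPM (15.9 to 41.3) with combination ACT and 5.59 CPM (3.19 to 9.07) with PD1d/IL-2v. Combination ACT at day 26 had 5.86 CPM. No Irf4 UMI was found in the 24 cells of non-treated tumors or the 15 of untransduced ACT at day 12. Their upper limits were 17.1 and 26.4 CPM. The share of all genes that order the libraries in this way is not given here. The PD1d/IL-33 library has 31 such cells with 7 Irf4 UMIs.

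Likeness between genes was the Pearson r of log2 levels, after 10 CPM were added, over the 27 combinations of library and gate with 20 or more cells. Out of 5486 genes with a mean of 20 CPM or more, those most like a member were Klre1, an NK receptor gene, for Eomes (Pearson r = 0.95) and for Tbx21 Cpne3 (0.92). Tyrobp and Fcer1g (both 0.93) were among the 3 most like Irf8. Bach2 ran most like Klrk1 (0.90), Irf4 like Zdhhc2 (0.88), Prdm1 like Sdc4 (0.86), Id2 like Ube2r2 (0.85), Runx3 like Itgal (0.81), and Zeb2 like Runx3 (0.77), itself a member. Id3 had no close match (Pithd1, 0.67). Between members the highest were Eomes with Irf8 (0.83) and with Bach2 (0.80) and the lowest Irf4 with Tbx21 (-0.77) and with Bach2 (-0.73). The points share libraries, depths and run codes, and the gates differ strongly from each other, so these values describe the tables and carry no test.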

How the data were processed

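UMI counts per gene and cell barcode were used as deposited. The authors made these counts with Cell Ranger, whose version the submitters' processing notes give as 2.2.0 on GRCm38 and the study's methods as another, and aggregated 8 libraries into 1 matrix. Whether that step thinned reads to equal depth is not given in the sources used here. Barcodes were assigned by their suffix and the deposited table of library names, from which run codes were also read (5 codes). Cells were filtered as the methods state for this experiment (113 ribosomal and 13 mitochondrial genes). The members, gates, marker lists and gene lists were chosen with earlier results of these data known. Named genes are the 10 members, the listed partners and readouts (2-fold examples), and the 3 genes most like each member. CPM carry exact Poisson intervals, shares exact Clopper-Pearson intervals, ratios a pseudocount of 10 CPM and a delta-method interval. That interval was checked only on simulated Poisson counts, the model it assumes, which leave out the clumping of UMIs in single cells. A split of CD8 T cells, 1 memory readout and 1 gene like a member are not reported here. Genes needed 50 UMIs and gates 20 cells. Doublets were not called; the 6% of cells with the most UMIs were left out as an alternative. Library totals ran from 1387032 to 24917112 UMIs. Computations ran in Python 3.11.15 (scipy 1.17.1, numpy 2.4.6, pandas 2.3.3), with figures by matplotlib 3.10.9 and TMM factors by edgeR 4.0.16 in R 4.3.3.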

Additional observations from a re-analysis of the deposited data

Results flagged for a closer look

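In 9 cases CD8 T and NK cells of the same pair of libraries moved in opposite directions, with both 95% counting intervals off 0 and the log2 ratios at least 1 apart. With 1 library a condition the difference was not tested. The share of all genes that pass this rule is not given here, so the count of 9 has no background. The differences below are the CD8 T minus the NK log2 ratio. Ratios were not centred on the median of all genes. In NK cells that median was -0.16 for combination against untransduced ACT at day 5. At day 12 it was -0.17, -0.20 and -0.20 for combination against PD1d/IL-33, PD1d/IL-2v and untransduced ACT. The NK ratio of -0.14 for Irf8 below lay no further from 0 than its median of -0.17. Whether the 9 cases hold after centring was not tested.

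For combination against untransduced ACT at day 5 the difference was 1.34 for Eomes (1.03 in CD8 T, -0.32 in NK cells) and 1.13 for Zeb2 (0.73 and -0.39). For PD1d/IL-33 against PD1d/IL-2v ACT it was -2.29 for Irf8 (-1.70 and 0.59) and -1.89 for Bach2 (-0.97 and 0.92). For combination against PD1d/IL-33 ACT at day 12 it was 1.37 for Irf8 (1.23 and -0.14) and 1.21 for Bach2 (0.66 and -0.55). In both of these pairs the intervals of the thinned Bach2 shares of CD8 T cells overlapped. Id2 differed by 1.13 for combination against PD1d/IL-2v ACT at day 12 (0.46 and -0.67) and by 1.503 against untransduced ACT at day 12 (0.74 and -0.76), which has 42 CD8 T and 51 NK cells. Prdm1 differed by 1.56 for untransduced ACT at day 5 against non-treated tumors (0.73 and -0.83), where the non-treated CD8 T cells held 4 Prdm1 UMIs.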

How the results depend on the processing

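No paired analysis was possible because each condition and day has 1 library and no result comes from a test. Of 1130 member values in CD8 T cells under other settings, 970 stayed within the counting interval, 158 left it, and 2 that were 2-fold or more apart turned sign. Changes of sign in smaller ratios were not counted apart. With untransduced ACT of day 5 as the control of combination ACT at day 12, the log2 ratio was -0.49 for Irf4 and -0.047 for Irf8. In CD4 T cells without Il1rl1, Gata3 or Areg UMIs that of Zeb2 at day 5 was -0.091, from 3 and 5 UMIs. The number of members 2-fold or more apart moved as follows. Combination against untransduced ACT at day 5 (1 member) gave 0 with the second experiment's cell filter, no filter, without the 6% of cells with the most UMIs, with equal weight per cell, thinned cells, or without Lyz2, C1qa or C1qb cells, and 2 without Mki67 or Top2a cells, with a pseudocount of 1 CPM or with TMM factors. Combination against PD1d/IL-33 ACT (2) gave 1 with the second filter, without the 6% or thinned, 0 with equal weight and 4 with a pseudocount of 1. PD1d/IL-33 against PD1d/IL-2v ACT (1) gave 2 with no filter, a gate of 2 marker UMIs, no Csf1r and Cd79a exclusion or no Ncr1 or Klrb1c cells, and 3 without Mki67 or Top2a cells, thinned or with a pseudocount of 1. Combination against untransduced ACT at day 12 (4) gave 2 with the second filter or without Lyz2, C1qa or C1qb cells, and 0 with the day 5 control. Day 12 against day 5 (1) gave 0 with either filter change, the gate of 2 UMIs, without the 6%, equal weight, TMM or no Ncr1 or Klrb1c cells. Day 26 against day 12 (1) gave 3 with the second filter or without Lyz2, C1qa or C1qb cells, 2 with the gate of 2 UMIs, without the 6%, without Mki67 or Top2a cells or thinned, and 4 with a pseudocount of 1. A count that rose can be of other members. Eomes, the 1 member called in this comparison, fell under 2-fold in 6 of 14 settings. In combination against untransduced ACT at day 5 it did so in 7 of 14, among them that without Mki67 or Top2a cells. The gate of 2 UMIs gave 1 member apart in every library between Foxp3-negative CD4 and CD8 T cells and 2 between Foxp3-positive and Foxp3-negative CD4 T cells, each from 0. The cause of these moves was not tested. The settings that leave out Ncr1 or Klrb1c cells, Lyz2, C1qa or C1qb cells, type 2 gene cells and shared barcodes, and the thinned granzyme split, were chosen after seeing the data. In CD8 T cells TMM factors shifted the median log2 ratio of all genes by -0.13 to 0.17. The NK factors ran from 0.809 in combination ACT at day 12 to 1.15 in non-treated tumors. Depth limits Id3, Bach2, Irf4 and Prdm1 most, above all in the libraries with 42 and 76 CD8 T cells.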

Other observations

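Irf8 was 1069 CPM in 137 cells with Xcr1 or Clec9a, markers of type 1 dendritic cells, and 2787 CPM in 41 cells with Siglech, a marker of plasmacytoid dendritic cells. In 127 cells gated as B cells Bach2 was 125 CPM, Irf4 142 CPM and Irf8 428 CPM.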
